A study of Homo sapiens with 45 samples.

Results

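BT-20 is an established human breast cancer cell line of the class called basal A, a group of triple-negative lines that keep epithelial features. The 3 BT-20 libraries, of 45 libraries from 15 breast cancer lines, were compared with 18 libraries of 6 other basal A lines, HCC1143, HCC1187, HCC1806, HCC1937, HCC70 and MDA-MB-468, with 3 libraries per line. The class follows the published grouping of these lines and is not given in the sample labels, which describe every line as epithelial and of wild-type genotype, with no treatment. Each line is a single cultured line, so the comparison is of 1 line with 6.

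BT-20 was grown in EMEM with 10% fetal bovine serum and 2 µg/mL insulin. The 5 HCC lines were grown in RPMI 1640 and MDA-MB-468 in L-15, both with the same serum and with no insulin listed. Medium, insulin and line cannot be told apart for any difference below. The BT-20 libraries came from runs 3, 4 and 5, as did those of 5 of the other lines, and the HCC1143 libraries came from runs 1 and 2. RNA was depleted of ribosomal RNA and counted per gene. The series concerns MYC, glutamine use and respiratory complex I in breast cancer cells, and genes of those pathways are described with the others.

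Basal A lines are known for keratins and adhesion proteins of the outer, basal layer of the mammary duct, mixed with keratins of the inner, luminal layer. They are mostly driven by growth factor receptors such as EGFR rather than by the oestrogen receptor. BT-20 is known as a line with many copies of EGFR.

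The BT-20 libraries held 6157076 to 7081675 counts and the other 18 held 4587650 to 14653677. Levels are given as CPM, counts scaled to library size with TMM, which also corrects for differences in RNA composition. A difference is the log2 fold change of BT-20 against the mean of the 6 lines, each line weighing equally, and it is called when the adjusted p of edgeR's quasi-likelihood test is under 0.05 and the absolute log2 value is at least 1. Of 17772 genes tested, 2487 were called higher in BT-20 (14%) and 2320 lower (13.1%). Together 27% were called, the share to hold beside the counts of gene lists below. The adjusted p alone was under 0.05 for 58.6% of genes. In 905 of the higher genes (5.09% of those tested) every BT-20 library lay above all 18 others, and in 579 of the lower genes (3.26%) every one lay below. The median difference over all tested genes was -0.015 and the median absolute difference 0.596.

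These p-values measure the spread between libraries of a line, and the labels do not say whether the 3 are separate cultures. With each line summed to 1 sample, so that the spread between the 6 lines is the error, 2 of 26358 genes were called higher (0.00759%) and 0 lower (0%) by edgeR. At an unadjusted p under 0.05 this fit had 456 genes higher and 417 lower. The 2 genes called both ways were HSD17B1 and CDYL2, and no other gene named below passed the test between lines. Each other difference below is therefore one between these cultures, larger than the spread between libraries and not shown to exceed the spread between basal A lines.

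HSD17B1 (chr17:42549214-42555213, GRCh38) encodes the enzyme that reduces estrone to estradiol. BT-20 libraries held 251, 241 and 178 CPM of it, while the 18 other libraries ranged from 0.49 to 4.1. BT-20 was more than a full order of magnitude above every other basal A line, with a log2 fold change of 7.26 (SE 0.14) and an adjusted p of 0.009919 between lines. Among all 15 lines of the series BT-20 ranked 1 for it. CDYL2 (chr16:80597906-80804329), a chromodomain protein that binds methylated histones, stood at 137, 108 and 129 CPM against 0.345 to 2.26. Its log2 fold change was 6.95 (SE 0.12), also with an adjusted p of 0.009919 between lines.

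**Figure D1:**
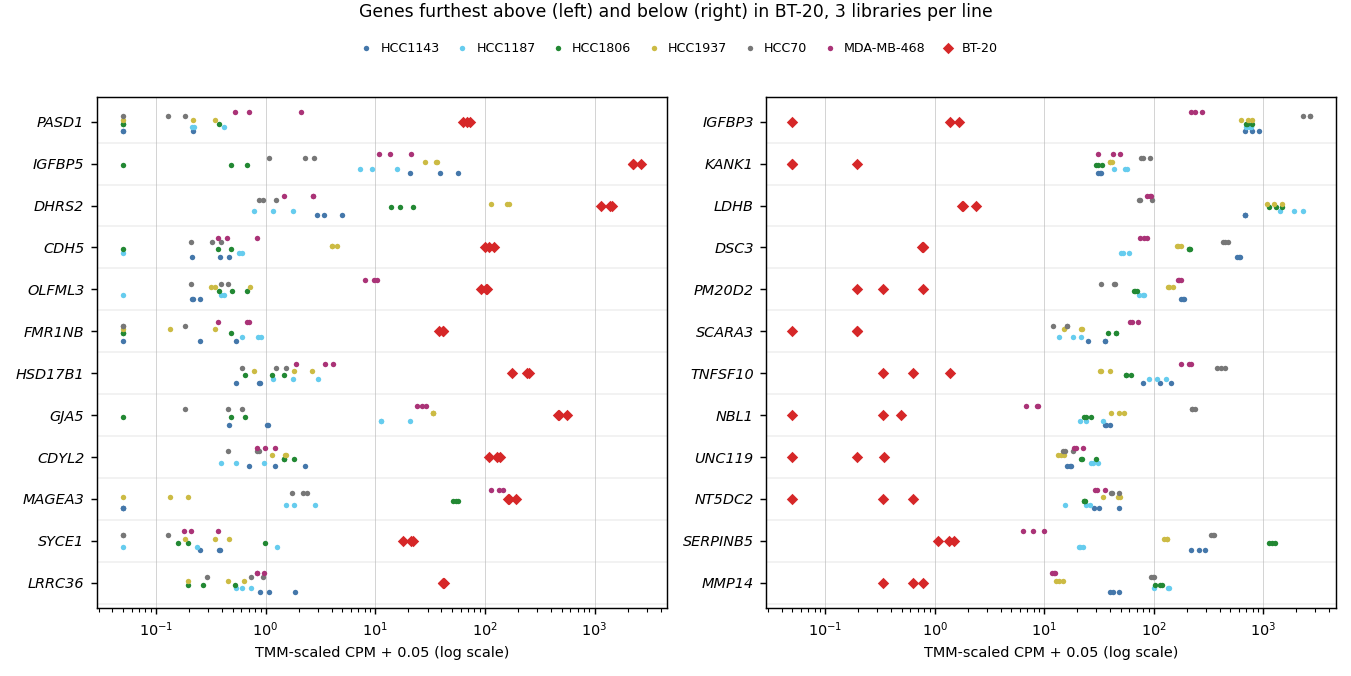
CPM plus 0.05 on a log axis for 12 genes furthest above and 12 furthest below in BT-20. They were taken from called protein-coding genes whose libraries do not overlap and that reach at least 20 CPM. Lower genes also had at least 5 CPM in each other line, so some separated genes further out are not shown. Each point is 1 library, with BT-20 as red diamonds and the 6 other lines as circles; HSD17B1 and CDYL2 show a narrow band of low values in all 6 lines, while MAGEA3 in MDA-MB-468 comes close to BT-20.

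The 12 protein-coding genes furthest above the other lines, among those without overlap and with at least 20 CPM in BT-20, came from unlike families. GJA5, the gap junction protein connexin 40 of heart and arterial cells, stood at 556, 472 and 461 CPM against 0 to 33.7. CDH5, the cadherin that joins endothelial cells, stood at 121, 109 and 101 CPM against 0 to 4.47. Both were above all 18 libraries, as the rule for naming them required, with log2 fold changes of 7.18 (SE 0.12) and 7.75 (SE 0.14). DHRS2, a dehydrogenase of the short-chain family, reached 1390, 1150 and 1430 CPM, with up to 165 in HCC1937 libraries. PASD1, FMR1NB, MAGEA3 and SYCE1 are genes normally used in the germ line, and their log2 fold changes were 8.50, 7.45, 6.51 and 6.40. For MAGEA3 that value rests on lines near 0, since MDA-MB-468 had a mean of 132 CPM against 173 in BT-20. OLFML3, a secreted matrix protein (7.50), and LRRC36 (6.13) completed the 12 with IGFBP5.

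CDH5 was the endothelial marker that stood apart. Of 15 markers of blood cells, endothelium and fibroblasts, 9 had enough counts to be tested, and 2 were called higher and 2 lower, with a median of 0.03. The endothelial receptor KDR and the adhesion molecule PECAM1 were not called, at -0.45 and -0.44. The other call above was VWF, at 1.85 CPM. VWF lost its call without BT-20 replicate 2 (0.97, adjusted p = 0.1352 by edgeR), without BT-20 replicate 3 (adjusted p = 0.08754) and without HCC70 (adjusted p = 0.07407).

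The long noncoding RNA LINC00624 lies near GJA5 on chromosome 1. It stood at 134, 117 and 144 CPM against 0.56 to 5.18 (log2 fold change 6.15, SE 0.11). SNHG18 and AC008736.1 were the next long noncoding RNAs above, at 5.52 and 4.82. NNT-AS1 and SNHG6 were the only ones that met the rule for naming genes below, at -3.74 and -1.95. NNT-AS1 is an antisense gene and the strand setting of the counting is not given in the sources used here.

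Among the 12 named genes furthest below, which had to reach 5 CPM in each other line, KANK1, NBL1, NT5DC2, UNC119 and SCARA3 were close to silent in BT-20. KANK1 organises the actin cortex, and 1 read was counted over the 3 BT-20 libraries against 29.6 to 91.7 CPM in the others. Against the median of the 6 lines, with counts scaled by library total alone, KANK1 was 848-fold lower, with a 95% Poisson interval of 152 to 33500 that covers counting error only. On the same basis SCARA3 (2 counts) was 276-fold lower (76.5 to 2280), NBL1 (5 counts) 135-fold (57.8 to 415), UNC119 (3 counts) 132-fold (45.2 to 640) and NT5DC2 (6 counts) 119-fold (54.5 to 323). The long noncoding RNA AC016205.1 (4 counts) was 49.8-fold lower (19.5 to 183). In bulk RNA, fewer cells that use a gene and less RNA per cell cannot be told apart.

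TNFSF10, the death ligand TRAIL, stood at 0.287, 1.32 and 0.58 CPM against 32.5 to 444. PM20D2, a peptidase, stood at 0.287, 0.147 and 0.725 against 32.9 to 190. Both lay below every other library, as the rule for naming them required, at log2 fold changes of -7.25 (SE 0.27) and -7.94 (SE 0.20).

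The promoters of 3 genes are shown, of a pair nearly lost in BT-20 and of 1 far above every other line there. Each is the 250 bases before the RefSeq start (GRCh38.p14), on the gene's minus strand, with CG pairs, the sites where DNA methylation occurs, in capitals. LDHB (chr12:21657843-21658092) makes a subunit of lactate dehydrogenase, IGFBP3 (chr7:45921273-45921522) a secreted binder of insulin-like growth factors, and GJA5 (chr1:147773352-147773601) connexin 40. The LDHB window lies inside the wider span that GENCODE gives this gene.
LDHB: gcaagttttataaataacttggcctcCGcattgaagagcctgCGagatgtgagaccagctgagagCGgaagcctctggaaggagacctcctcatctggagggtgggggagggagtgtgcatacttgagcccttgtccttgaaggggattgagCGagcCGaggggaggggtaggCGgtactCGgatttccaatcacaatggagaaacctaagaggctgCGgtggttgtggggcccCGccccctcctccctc
IGFBP3: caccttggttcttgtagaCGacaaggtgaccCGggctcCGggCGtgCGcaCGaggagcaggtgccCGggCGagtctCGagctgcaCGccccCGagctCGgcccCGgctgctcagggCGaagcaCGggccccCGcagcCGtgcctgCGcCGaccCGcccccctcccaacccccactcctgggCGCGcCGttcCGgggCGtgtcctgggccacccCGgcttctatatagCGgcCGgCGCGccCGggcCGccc
GJA5: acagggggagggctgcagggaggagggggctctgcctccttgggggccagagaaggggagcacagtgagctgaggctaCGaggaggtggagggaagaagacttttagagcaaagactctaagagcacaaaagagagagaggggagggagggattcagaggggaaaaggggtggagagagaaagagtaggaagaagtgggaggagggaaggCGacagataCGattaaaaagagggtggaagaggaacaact

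The IGFBP3 window held 32 CG pairs, the LDHB window 9 and the GJA5 window 3. The median over 27305 RefSeq promoter windows was 11, and 90.7% of them had fewer CG pairs than IGFBP3. The 11 genes of the lower 12 with a sequence had a median of 9, and the 7 of the higher 12 a median of 8. No DNA methylation was measured here, and whether it differs at these promoters was not tested. Of the enzymes that write and erase it, the methyltransferases DNMT1, DNMT3A and DNMT3B were not called, at -0.61, 0.66 and -0.70. TET1, which oxidises methylated cytosine, stood at 2.87, 3.09 and 3.92 CPM, below all other libraries (4.56 to 93.5), at -2.00 (SE 0.19, edgeR adjusted p = 6.57e-10).

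The insulin and IGF pathway held the widest pair of opposite differences. IGF-binding proteins trap insulin-like growth factors outside the cell and set how much reaches the receptor. Of 24 tested genes of the pathway, 7 were called higher and 10 lower (median -0.18, 70.8% called against 27% of all genes). IGFBP5 reached 2660, 2230 and 2250 CPM in the BT-20 libraries against 0 to 57.3 in the others. IGFBP3 stood at 0, 1.32 and 1.6 CPM against 220 to 2700. The groups were far from overlapping in both, with log2 fold changes of 8.33 (SE 0.16, edgeR adjusted p = 1.802e-24) and -9.59 (SE 0.26, adjusted p = 4.849e-21). The binding proteins IGFBP4 and IGFBP6, were represented by 4 and 2 counts in all of BT-20, below every other library, although other lines were also low: IGFBP4 reached 15.9 CPM at most and IGFBP6 had a mean of 0.465 CPM in HCC1187.

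The receptor that these proteins regulate was also high. IGF1R stood at 88, 73.1 and 85.3 CPM in BT-20 against 0.554 to 50.5, and BT-20 ranked 1 of 15 lines (log2 fold change 2.98, SE 0.13). The adaptor IRS1, which links the insulin and IGF receptors to PI3K, went the other way, at 1.15, 1.91 and 0.725 CPM, meeting the lowest HCC1937 library at 1.9 (-2.41, SE 0.32). FOXO3, a transcription factor that AKT holds out of the nucleus, was above all 18 libraries at 179, 169 and 185 CPM against 22.7 to 99.1 (1.70, SE 0.10). The 2 phosphatases that remove the activating phosphate of AKT differed in direction. PHLPP2 stood at 222, 177 and 203 CPM against 23.7 to 63.6 (2.44, SE 0.09), and PHLPP1 at 6.59, 5.15 and 5.95 against 9.15 to 21.7 (-1.25, SE 0.15). PIK3CA, the catalytic subunit of PI3K, was not called (-0.07, edgeR adjusted p = 0.4682), at 111, 90.4 and 113 CPM within the range of 65.3 to 151.

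EGFR, the receptor for epidermal growth factor, stood at 800, 632 and 782 CPM in BT-20. The mean was 1780 CPM in MDA-MB-468 and 64.6 to 216 in the other 5 lines, so BT-20 was second, between MDA-MB-468 and the rest (log2 fold change 1.96, SE 0.12, edgeR adjusted p = 2.502e-13). Of 15 tested receptors and ligands of the family, 2 were called higher and 3 lower (median 0, 33.3% called against 27% of all genes). The ligand HBEGF was below all other libraries at 3.15, 3.23 and 2.18 CPM against 3.31 to 24.4 (-1.70, SE 0.21). EREG, another ligand, stood at 17 ± 1.69 CPM (SD, n = 3), between HCC1937 and HCC1806 above it, at 94.2 and 82.4, and the other 4 lines.

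Of 15 tested feedback genes and ETS-family targets of the MAPK pathway, which EGFR activates, 7 were called higher and 2 lower (median 0.83). That is 60% called, against 27% of all genes. DUSP4, a phosphatase that switches ERK off, stood at 93.4, 79.4 and 90.2 CPM, above all other libraries (2.29 to 41.2; log2 fold change 3.30, SE 0.10). The ETS factor ETV4 was also above all 18, at 12, 14.3 and 9 CPM against 1.48 to 8.99 (1.34, SE 0.18). ETV5 at 47.7, 38.1 and 39.3 CPM overlapped with HCC1937 (2.60, SE 0.14). DUSP6, a second ERK phosphatase, was low at 2.15, 1.47 and 1.6 CPM, beside a mean of 1.26 in HCC1187 and 42.7 in HCC1806 (-2.04, SE 0.21). The feedback genes thus did not move as a block. SPRY1, the other member called lower, was at the fold threshold and lost its call without MDA-MB-468 (-0.50, adjusted p = 0.2105 by edgeR), without HCC70, and without replicate 1 or 2 of BT-20 (-0.84 and -0.85).

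The markers of the basal layer were mostly lower in BT-20. Of 20 tested basal epithelial genes, 13 were called lower and 2 higher, with a median log2 fold change of -1.91. KRT17, a basal keratin, stood at 4.3, 4.7 and 2.61 CPM against 124 to 908, far below every other library (-6.26, SE 0.18, edgeR adjusted p = 1.359e-20). KRT14 was at 0.43, 0.882 and 0.145 CPM and ran from a mean of 0.75 in HCC1187 to 1580 in HCC1806, so BT-20 was not alone at the low end (-5.34, SE 0.35). KRT5, the partner of KRT14 in basal cells, behaved differently: at 532, 453 and 382 CPM it was below HCC1806 and HCC70 (means of 2340 and 2170) and above the other 4 lines. Its call (1.12, adjusted p = 2.435e-11) was lost with the run as a block and HCC1143 left out (0.14, adjusted p = 0.2011 by edgeR) and fell under the fold threshold without HCC1937 (0.76).

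**Figure D2:**
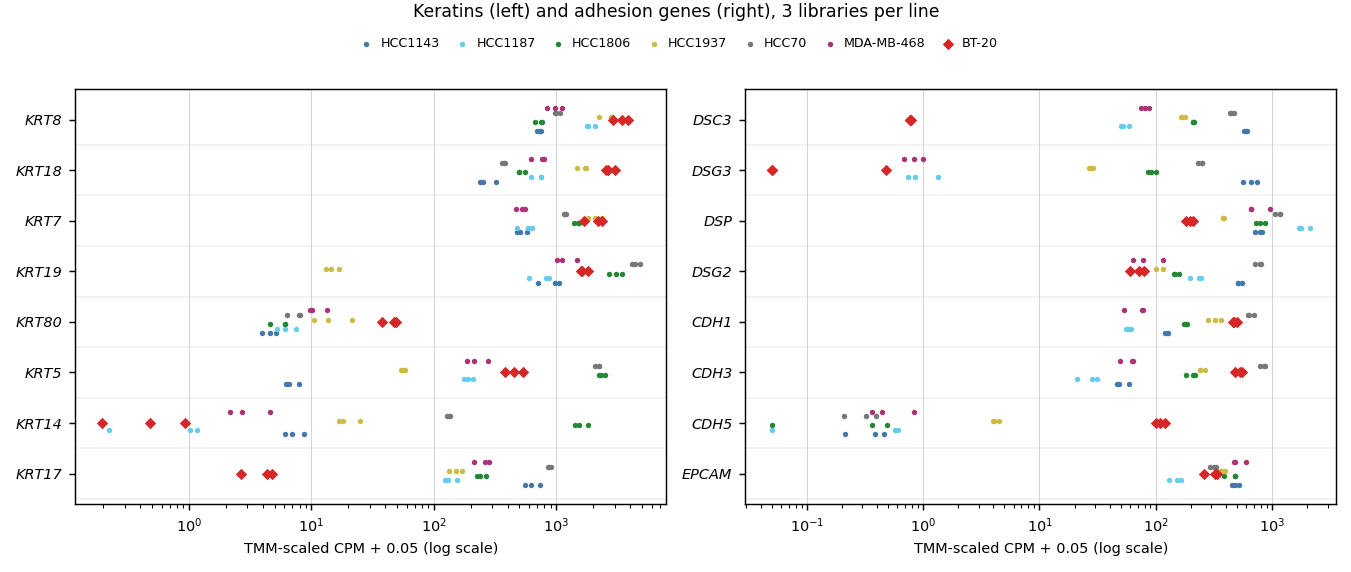
CPM plus 0.05 on a log axis for 8 keratins and 8 adhesion genes, 1 point per library, with BT-20 as red diamonds. KRT8, KRT18 and KRT80 in BT-20 lie above the other lines, KRT17 and DSC3 far below them, and KRT5 and EPCAM among them.

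KRT8 and KRT18, 2 keratins of simple, luminal epithelium, were high in the same libraries. KRT8 stood at 3810, 2890 and 3460 CPM against 674 to 2820 and its partner KRT18 at 3040, 2620 and 2550 against 238 to 1730. Both lay above all 18 libraries and ranked 1 of 15 lines, with log2 fold changes of 1.53 (SE 0.08) and 2.2 (SE 0.08). KRT80, which is not in the luminal list, stood at 48.9, 47.2 and 37.9 CPM against 3.92 to 21.2 (2.55, SE 0.13). Over the keratin list, 7 of 19 tested genes were called higher and 9 lower (median -1.16). Keratin genes have close copies and pseudogenes, and how reads that align to several places were counted is not given in the sources used here. Single values of KRT8, KRT18, KRT6A, KRT6B, KRT14, KRT16 and KRT17 are uncertain to that extent.

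Other luminal genes did not follow KRT8 and KRT18 as a set: of 19 tested, 6 were called higher and 7 lower (median 0.16). KRT8 and KRT18 were the only 2 of the list above all 18 libraries. FOXA1, the pioneer factor of luminal cells, stood at 41.4, 32.3 and 46.9 CPM, within the other lines' range of 1.8 to 54.4 (1.66, SE 0.14). AGR2, a secretory chaperone of luminal tumours, was below all other libraries at 0.86, 0.441 and 0.29 CPM against 3.54 to 316 (-5.37, SE 0.29).

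Desmosomes, the junctions that anchor keratins to the membrane, had low RNA of several cadherins. DSC3 stood at 0.717, 0.735 and 0.725 CPM against 49.9 to 609 (-7.97, SE 0.15, edgeR adjusted p = 1.402e-24). DSG3, with 3 counts in BT-20, lay below every other library, but HCC1187 and MDA-MB-468 had means of only 0.931 and 0.789 CPM. DSC2, at 39.5 CPM against line means of 112 to 539, and the linker DSP, at 198, 183 and 210 CPM against 378 to 2100, were below all others as well (-2.65, SE 0.11 and -2.11, SE 0.11). Classical cadherins went both ways. CDH2, or N-cadherin, was called lower (-1.65, SE 0.34), at a mean of 1.02 CPM among line means of 0.367 to 131, while CDH1 and CDH3 were higher. CDH1, or E-cadherin, stood at 469, 457 and 495 CPM, second to HCC70 (1.54, SE 0.08), and CDH3, or P-cadherin, at 526, 553 and 478, again second to HCC70 (2.08, SE 0.08).

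Over the 28 genes of epithelial junctions, 8 were called higher and 5 lower (median -0.18), and the general epithelial marker EPCAM, at 320, 259 and 335 CPM, was not called (-0.22). The epithelial splicing factor ESRP2 was above all 18 libraries at 86.8, 74.2 and 87.3 CPM against 6.57 to 44.5 (1.97, SE 0.11). Of 21 tested mesenchymal genes, 3 were called higher and 6 lower (median 0.02). FN1, or fibronectin, was above all others at 112, 108 and 102 CPM against 2.52 to 69.4 (3.11, SE 0.11). Vimentin (VIM) stood at 8.45, 9.26 and 9 CPM, above HCC1937 and HCC1806, with means of 2.3 and 3.53, and below the other 4 lines, of which HCC1143 had 1310 (-2.13, SE 0.16). RNA of the epithelial genes CDH1, EPCAM, KRT8 and KRT18 was thus present in BT-20. Other epithelial genes were low: beside the 8 junction genes called higher, the 5 called lower included DSP (-2.11), CLDN3 (-1.90), DSG2 (-1.64) and CLDN1 (-1.16). Of the basal keratins named here, KRT17 alone lay below all 18 libraries, while KRT5 and KRT14 overlapped with other lines.

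**Figure D3:**
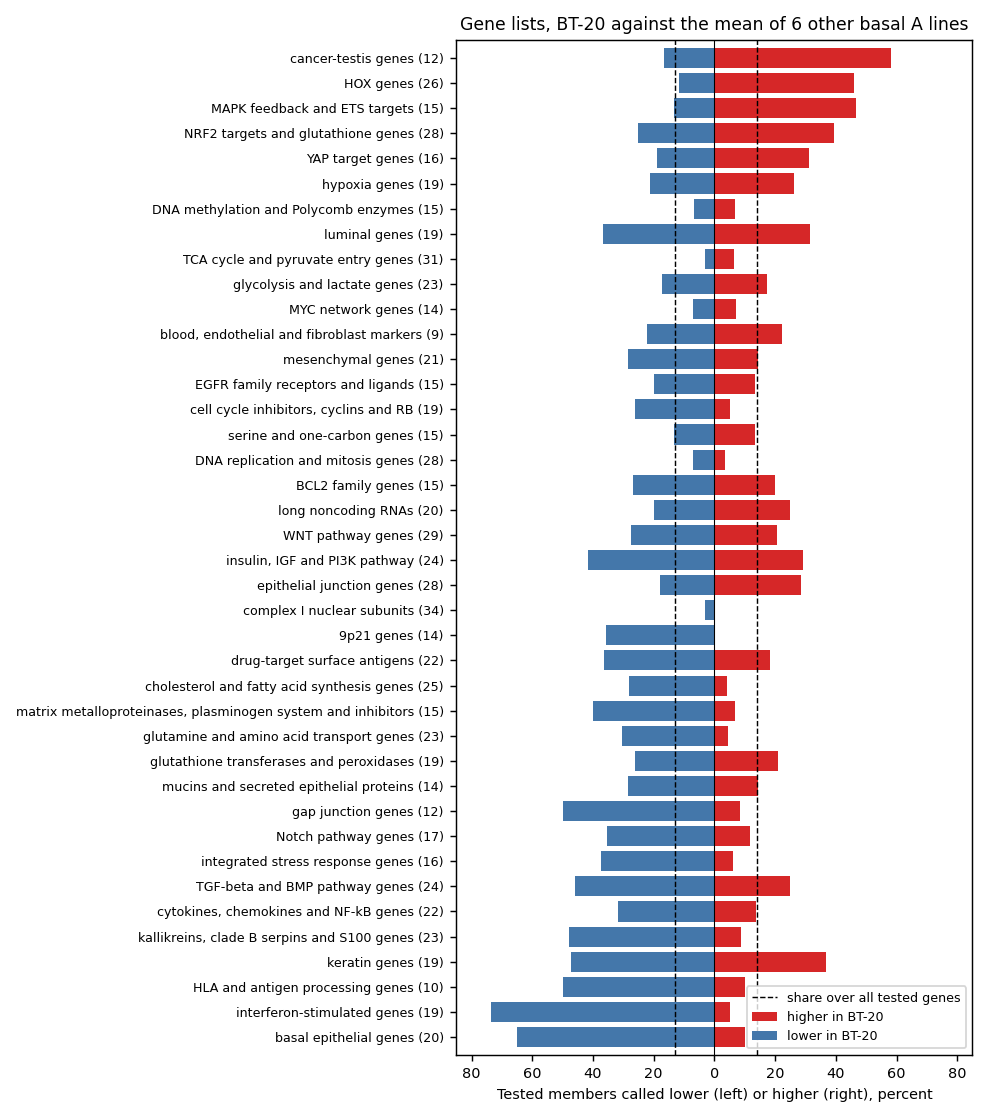
Percent of tested members called lower (blue, to the left) or higher (red, to the right) in BT-20 for 40 gene lists, with the number tested in brackets and the lists ordered by their median log2 fold change. Dashed lines mark the shares over all tested genes, 13.1% lower and 14% higher; interferon-stimulated and basal epithelial genes extend furthest to the left, while replication, TCA cycle and complex I genes lie inside or near the dashed lines.

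NRF2 is the transcription factor that raises antioxidant and glutathione genes when its inhibitor KEAP1 releases it, and it reads a DNA motif called the antioxidant response element. Of 28 tested NRF2 targets and glutathione genes, 11 were called higher and 7 lower (median 0.59, 64.3% called against 27% of all genes). Of those called lower, ABCC1 had means of only 0.673 CPM in BT-20 and 2.75 over the other lines, and its call is uncertain. NQO1, a quinone reductase and one of the best known targets, stood at 5640, 5130 and 5850 CPM against 393 to 1330 (log2 fold change 2.66, SE 0.06, edgeR adjusted p = 1.903e-22). TXNRD1, thioredoxin reductase, stood at 3890, 3190 and 3800 CPM against 481 to 2170 (1.98, SE 0.09). Both genes were above every one of the 18 libraries.

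AKR1B10, an aldo-keto reductase, stood at 702, 643 and 768 CPM, above MDA-MB-468, with a mean of 456, and further above the other 5 lines, with means of 3.24 to 66.6 (4.11, SE 0.12). OSGIN1, a growth inhibitor induced by oxidative stress, stood at 41.1, 43.5 and 40.9 CPM against 1.38 to 19.4 (2.59, SE 0.10). GSS, which completes glutathione, stood at 277, 232 and 259 CPM against 22.8 to 184 (1.48, SE 0.07). TRIM16L, at 463, 400 and 426 CPM against 1.09 to 210, was also above all others (3.06, SE 0.11), though it has a near-identical relative, TRIM16, with which reads can be shared.

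Other members of the list did not rise. The cystine carrier SLC7A11 and both subunits of glutamate-cysteine ligase, GCLC and GCLM, were not called, at 0.52, -0.16 and 0.43. AKR1C1 stood at 2.87, 4.12 and 5.08 CPM, below all other libraries (9.32 to 905; -4.49, SE 0.19). AKR1C1, AKR1C2 and AKR1C3 are close copies, and the calls of AKR1C2 and AKR1C3 fell under the fold threshold with the run as a block and HCC1143 left out, at -0.90 and -0.80. KEAP1 itself was below all 18 libraries, at 34.5, 31.5 and 27.9 CPM against 42.1 to 129 (-1.33, SE 0.11, edgeR adjusted p = 5.799e-11). NFE2L2, which encodes NRF2, stood at 141, 143 and 158 CPM and was not called (0.77, SE 0.09).

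The glutathione transferases, which attach glutathione to reactive compounds, did not share the direction of NQO1. Of 19 tested transferases and peroxidases, 4 were called higher and 5 lower (median -0.48). GSTP1, the main transferase of breast epithelium, had 1 count over the 3 BT-20 libraries and means of 37.3 to 458 CPM in 5 lines, while HCC1937 was also near 0, with a mean of 0.0903 CPM. Its call was lost by edgeR without replicate 2 of every line (adjusted p = 1). GSTM3 was at 1.72, 2.79 and 2.32 CPM, next to HCC1187 with a mean of 3.14 and well under the other 5 lines (-4.02, SE 0.21). The peroxidase GPX8 was the 1 member below all 18 libraries, at 15 CPM against line means of 33.2 to 109 (-1.94).

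**Figure D4:**
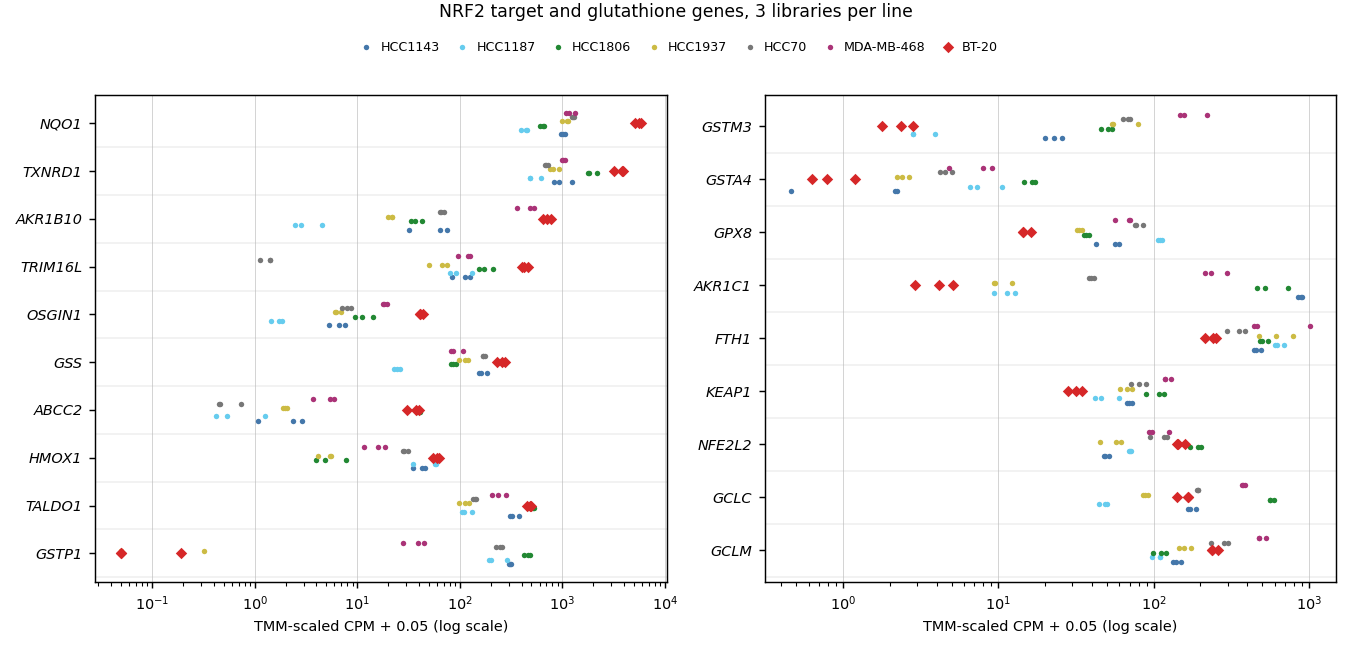
CPM plus 0.05 on a log axis for 19 NRF2 target and glutathione genes, 1 point per library, with BT-20 as red diamonds. NQO1, TXNRD1 and OSGIN1 in BT-20 stand to the right of every other library, KEAP1 and AKR1C1 to the left, and GSTP1 is near 0 in BT-20 and HCC1937.

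The antioxidant response element was searched as TGACNNNGC on both strands of the 250 bases before each RefSeq start, to see whether the members called in BT-20 carry it. It was found in 11% of all 27305 windows and in 8 of 37 members of the NRF2 and glutathione lists that had a sequence (21.6%). Of the members called higher 1 of 10 held it, and of those called lower 3 of 10. The 4 called members with a match are given in lower case with the match in capitals. TXNRD1 (chr12:104215670-104215698) was called higher and GSTP1 (chr11:67583736-67583764), PGD (chr1:10398853-10398881) and GSTA4 (chr6:52995285-52995303) lower. The sequences follow each gene's strand, and in PGD the match is on the other strand.
TXNRD1: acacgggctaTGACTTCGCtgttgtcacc
GSTP1: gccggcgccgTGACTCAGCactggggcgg
PGD: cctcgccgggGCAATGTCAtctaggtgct
GSTA4: ccgggaccgcTGACCTGGC
Within this window the match was present in genes on both sides of the comparison. Elements further from the start were not searched, and whether NRF2 acts on these genes was not tested.

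Lactate dehydrogenase is made of A and B subunits, and the B subunit favours the use of lactate. LDHB stood at 1.72, 1.76 and 2.32 CPM in BT-20 against 73.6 to 2300 in the other libraries (log2 fold change -8.00, SE 0.22, edgeR adjusted p = 6.135e-21). The other lines formed 2 levels, HCC70 and MDA-MB-468 with means of 81.7 and 91.4 CPM and the other 4 lines with 683 to 1870. LDHA was not called (0.61), at 1280, 1070 and 1140 CPM within the range of 268 to 2100. Per kilobase of annotated exons, BT-20 had 187 RPKM of LDHA and 0.649 RPKM of LDHB. HCC70 had 137 and 27.4 and MDA-MB-468 had 114 and 30.6, so LDHA exceeded LDHB in these lines too. In HCC1143, HCC1187, HCC1806 and HCC1937, LDHB was the higher of the pair, at 229, 627, 439 and 426 RPKM against 49.3, 148, 330 and 92.1 of LDHA.

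Of 23 tested glycolysis and lactate genes, 4 were called higher and 4 lower (median 0.05, 34.8% called against 27% of all genes). PFKM, the muscle form of phosphofructokinase, stood at 8.45, 5 and 4.79 CPM, below all other libraries (16.1 to 94; -2.67, SE 0.18). TPI1, triose-phosphate isomerase, was high at 2240, 1830 and 2030 CPM (1.22, SE 0.08), with the highest HCC70 library at 1840. The TPI1 call fell under the fold threshold without MDA-MB-468 (0.95). Of 31 tested TCA cycle and pyruvate entry genes, 2 were called higher and 1 lower (9.68% called against 27% of all genes). SUCLG2, a subunit of succinyl-CoA ligase, stood at 191, 172 and 185 CPM against 35.7 to 156 (1.23, SE 0.07). PDK1, which inhibits pyruvate dehydrogenase, was above all 18 libraries at 69.9, 67.8 and 70.1 CPM against 11.3 to 61.5 (1.18), but its fold was under the threshold with the run as a block and HCC1143 left out (0.95).

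Glutamine feeds the TCA cycle after its conversion to glutamate, and glutamine synthetase runs the opposite way. GLUL, glutamine synthetase, stood at 44.1, 43.5 and 49.3 CPM against 145 to 1390, below all others (-2.94, SE 0.16, edgeR adjusted p = 7.083e-15). Of 23 tested glutamine and amino acid transport genes, 1 was called higher and 7 lower (median -0.46, 34.8% called against 27% of all genes).

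The cytosolic and mitochondrial formyl-folate dehydrogenases differed in opposite directions. The cytosolic formyl-folate dehydrogenase ALDH1L1 stood at 56.7, 45.9 and 50.2 CPM against 0 to 9.56 (5.76, SE 0.20), and its mitochondrial relative ALDH1L2 at 3.15, 6.91 and 6.09 against 19.4 to 101 (-2.93, SE 0.17). SHMT1, the cytosolic serine hydroxymethyltransferase, was also above all others, at 54.3, 44.5 and 49.8 CPM against 7.94 to 36.9 (1.55, SE 0.12). In the whole list of 15 serine and one-carbon genes, 2 were called higher and 2 lower (median -0.03). That is 26.7% called, against 27% of all genes. The mitochondrial enzymes SHMT2 and MTHFD2 and the cytosolic MTHFD1 were not called.

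Complex I, the entry point of the respiratory chain, had 1 of 34 tested nuclear subunits called (2.94%, against 27% of all genes). That subunit, NDUFS4, stood at 59.6, 36.9 and 61.2 CPM against 76.5 to 277, below all other libraries (-1.36, SE 0.17). MYC was not called (-0.34, edgeR adjusted p = 0.01862), at 72.7, 62.9 and 63.8 CPM within the range of 47 to 164, and BT-20 ranked 10 of 15 lines for it. Of 14 tested MYC network genes, 1 was called higher, MXD4 (1.57), and 1 lower, MXI1 (-1.78). Both are MYC antagonists, and 14.3% of the list was called, against 27% of all genes.

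Of 25 tested cholesterol and fatty acid synthesis genes, 7 were called lower and 1 higher (median -0.36), and 6 lay below all 18 libraries against 4.09% of all genes. In all 32% of the list was called, against 27% of all genes. SCD, which desaturates fatty acids, stood at 44.3, 36.9 and 45.6 CPM against 145 to 595 (-2.69, SE 0.18). The sterol carrier STARD4 stood at 4.87, 3.68 and 5.51 CPM against 19.1 to 114 (-3.18, SE 0.15). The sterol enzymes IDI1, SQLE and DHCR7 were likewise below every other library, with means of 93.5, 59.8 and 22.2 CPM and log2 fold changes of -1.83, -1.72 and -1.68. The single call above, ACACA, had under 1 CPM in BT-20 and is uncertain. ACACA, FDFT1 and CYP51A1 had low counts for such enzymes, at most 18.3 CPM in any of the 18 other libraries, and were not read further.

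The cell cycle inhibitors CDKN2A and CDKN2B, neighbours on 9p21, were near 0. CDKN2A (chr9:21967753-21995301), the gene of p16, had 1 count over the BT-20 libraries and CDKN2B (chr9:22002903-22009363) 7. HCC1806 was also near 0, at 0.21 and 0.23 CPM, while the other 5 lines had means of 7.69 to 184 and 40.6 to 295. MTAP, which lies beside them at chr9:21802543-21937651, was present at 113, 109 and 102 CPM and not called (-0.03, edgeR adjusted p = 0.7233). Of 14 tested 9p21 genes, 0 were called higher and 5 lower (median -0.28, 35.7% called against 27% of all genes). Copy number was not measured here.

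RB1, the protein that p16 acts through, was high. It stood at 168, 140 and 176 CPM against 0.473 to 98, where MDA-MB-468 was near 0 with a mean of 1.17 (2.33, SE 0.11, edgeR adjusted p = 3.424e-16). CDKN1A, the inhibitor p21 of cyclin-dependent kinases, was called lower (-1.25, SE 0.17), with MDA-MB-468 lower still. Its call was lost without HCC70 (-0.91). Replication and mitosis genes differed in few cases, with 10.7% of 28 called against 27% of all genes. Of these, 1 was called higher, the replication factor GINS2 (1.60), and 2 lower, its partner GINS1 (-1.78) and the proliferation marker MKI67 (-1.02). MKI67 fell under the fold threshold without BT-20 replicate 1 or 2 (-0.98 and -0.93) and without HCC1187, HCC1806 or HCC1937 (smallest change -0.85).

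Interferon-stimulated genes encode antiviral proteins and were the list with the largest share called lower of the 41 examined. Of 19 tested, 14 were called lower and 1 higher (median -1.79). IFI44 stood at 1, 0.882 and 1.45 CPM against 14.2 to 502 (log2 fold change -6.35, SE 0.21, edgeR adjusted p = 2.777e-19). MX1, which blocks viral nucleocapsids, stood at 22.1, 13.4 and 16.4 CPM against 48.2 to 885 (-3.13, SE 0.22), and ISG15, the ubiquitin-like modifier, at 3.58, 4.56 and 4.79 against 7.1 to 88.2 (-2.91, SE 0.26). With USP18 (-1.59) and IFIH1 (-1.10), these 5 lay below every other library. BST2, which tethers virus particles, was the call above, at 118, 70.9 and 126 CPM beside means of 6.16 to 242, and its fold fell under the threshold with the run as a block and HCC1143 left out (0.93). The levels differed widely among the 6 lines too, with a mean for IFI44 of 17.3 CPM in MDA-MB-468 and 454 in HCC1187.

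Cytokines and NF-kB targets were lower more often than higher, in 7 and 3 of 22 tested (median -0.85). Over all tested genes 13.1% were called lower and 14% higher, 27% in all, against 45.5% called here. TNFAIP3, which shuts NF-kB off, stood at 1, 1.47 and 0.435 CPM against 2.24 to 86.6, and the macrophage growth factor CSF1 at 0.43, 1.03 and 0.435 against 1.84 to 33.3. Both were below all others (-3.55, SE 0.34 and -3.75, SE 0.29). The chemokine CXCL5 had 0 counts in BT-20, but it was also under 1 CPM in HCC1187, HCC1806, HCC1937 and MDA-MB-468.

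Proteases outside the cell and their inhibitors were called lower more often than higher. Of 15 tested matrix metalloproteinases and plasminogen genes, 6 were called lower and 1 higher (median -0.43, 46.7% called against 27% of all genes). MMP14, the membrane-bound collagenase, stood at 0.287, 0.735 and 0.58 CPM against 11.7 to 137 (-6.40, SE 0.20, edgeR adjusted p = 1.862e-19). PLAU, the urokinase activator of plasminogen, had 2 counts in BT-20 and lay below all others, which ran from 0.323 to 27.1 CPM. SERPINB5, or maspin, an epithelial serpin, stood at 1.29, 1.03 and 1.45 CPM against 6.31 to 1270 (-6.50, SE 0.17). Among 23 kallikreins, clade B serpins and S100 genes, 11 were called lower and 2 higher (median -0.86). S100A4 had 6 counts in BT-20, below all other libraries (2.22 to 74.8 CPM).

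YAP targets split. Of 16 tested, 5 were called higher and 3 lower (median 0.45). TEAD1, the partner of YAP on DNA, stood at 325, 276 and 300 CPM against 26 to 241 (1.98, SE 0.12), and the secreted targets CYR61, at 57.6, 44 and 42.8 against 3.55 to 30.3, and CRIM1, at 577, 470 and 514 against 91.7 to 274, were above all others (2.43, SE 0.14 and 1.48, SE 0.08). CTGF, another standard target and a relative of CYR61, had 0 counts in BT-20 and 0.136 to 26.6 CPM in the other libraries.

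Developmental signalling genes moved in both directions. WNT5A, a non-canonical WNT ligand, stood at 234, 185 and 223 CPM against 0.173 to 43.7 (4.99, SE 0.09, edgeR adjusted p = 1.802e-24). Of 29 tested WNT pathway genes, 6 were called higher and 8 lower (median -0.17, 48.3% called against 27% of all genes). In the Notch pathway, the receptor NOTCH2 was above all others at 380, 343 and 303 CPM against 44.6 to 220 (1.84, SE 0.10), and the ligand JAG1 below all others at 30.4, 29.7 and 27.7 against 81.4 to 436 (-2.17, SE 0.13). Among 17 Notch genes 2 were called higher and 6 lower (median -0.70, 47.1% called). Of 24 TGF-beta and BMP pathway genes, 6 were called higher and 11 lower (median -0.81, 70.8% called). The BMP targets ID2, at 5.16, 1.91 and 4.64 CPM against 12.4 to 105, and ID4, at 4.87, 5.88 and 5.37 against 22.4 to 171, lay below every other library (-3.39, SE 0.19 and -3.90, SE 0.21).

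GJA5 was the exception among connexins, the subunits of gap junctions. Of 12 tested, it was the 1 called higher, and 6 were called lower (median -0.61). GJB5 had 0 counts in BT-20 and means of 6.3 to 25.9 CPM in HCC1806, HCC1937, HCC70 and MDA-MB-468, with under 1 CPM in HCC1143 and HCC1187. GJA1, the connexin 43 common in epithelia, was under 1 CPM in BT-20 and in all other lines except HCC1806, with 146.

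Differences were also grouped by position. Over all tested genes, of any type, 14% were called higher and 13.1% lower. Of protein-coding genes on chromosome 16, 28.7% were called higher and 5.87% lower, and on chromosome 20, 24.7% and 10.4%. On chromosome 18, 4.52% were called higher and 33% lower, and on chromosome 10, 6.83% and 31.1%. The median log2 fold change was -0.74 on chromosome 18 and -0.64 on chromosome 10, against 0.53 on chromosomes 15 and 20. Several genes already described lie on these chromosomes: CDH5, CDYL2, LRRC36, NQO1, OSGIN1, ESRP2, PHLPP2, CDH1 and CDH3 on 16, DSC3, DSG3, SERPINB5 and PHLPP1 on 18, and IDI1, SCD and TET1 on 10. Whether copy number differs there was not tested.

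**Figure D5:**
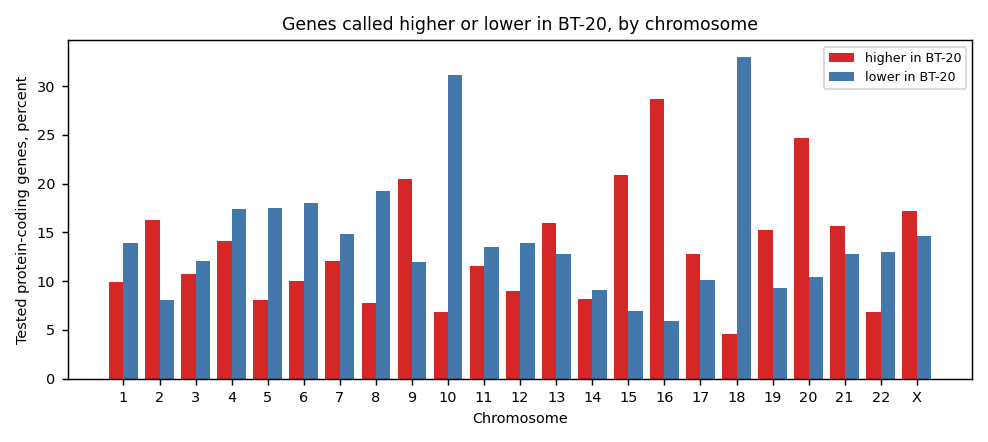
Percent of tested protein-coding genes called higher (red) or lower (blue) in BT-20 on each chromosome. Chromosomes 16 and 20 have the tallest red bars, at 28.7% and 24.7%, and chromosomes 18 and 10 the tallest blue bars, at 33% and 31.1%. Over all tested genes, of any type, 14% were called higher and 13.1% lower.

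Runs of 20 neighbouring protein-coding genes, 13459 overlapping windows in all, were ranked by their median, and only the most extreme are given. The highest median, 2.32, was on X from HMGB3 to ZNF275, with 11 genes called higher and 1 lower. This run holds cancer-testis genes, which are silent in most adult tissues outside the germ line. MAGEA3 stood at 193, 165 and 162 CPM, and MAGEA6 at 153, 141 and 130. MDA-MB-468 had means of 132 and 145 CPM and HCC1806 53.9 and 72.1, while the other 4 lines were at 2.06 or below. The MAGEA genes are near-identical copies, so the split of reads between them is uncertain. Over the list of cancer-testis genes, 7 of 12 tested were called higher and 2 lower (median 3.01), and the MAGEA and CSAG members of this run account for 6 of the 7.

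The next run, on chromosome 16 from PDPR to ATXN1L, had a median of 1.73, with 18 of 20 genes called higher and 0 lower. MTSS1L stood at 114 ± 14.2 CPM (SD, n = 3) against 8 to 36 in the other libraries (2.60, SE 0.12). PHLPP2 lies in the same run. On chromosome 4, from EDNRA to TMEM131L, the median was 1.70, with 15 called higher and 0 lower. ARHGAP10, a GTPase-activating protein, stood at 408, 348 and 444 CPM against 18.5 to 88.5 (3.37, SE 0.07), and TRIM2, a ubiquitin ligase, at 748, 693 and 742 against 41.3 to 201 (2.95, SE 0.07).

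The lowest runs were on chromosome 18, from TNFRSF11A to CCDC102B (median -1.79, 15 called lower and 0 higher) and from ANKRD29 to DSG2 (-1.64, 16 and 0), and at the start of chromosome 6, from DUSP22 to FAM50B (-1.61, 15 and 0). The first holds several clade B serpins and BCL2, and the second the desmosomal cadherins. On chromosome 6, FOXQ1 and SERPINB9 had means of 0.049 and 0.0484 CPM in BT-20, below all other libraries (0.947 to 103 and 1.85 to 28.3).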

How the data were processed

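RNA of 15 lines, with 3 libraries each, was sequenced. Per the labels' protocols, RNA was isolated with RNeasy kits, depleted with Ribo-Zero Gold, and 1000 ng went into ScriptSeq v2 libraries. The tools were, per the submitters' processing notes, bcl2fastq 2.20.0.422, FastQC, MultiQC, Trimmomatic, STAR and featureCounts, with build GRCh38.p12. No source used here gives the annotation release, the strand setting or the handling of multiply aligned reads. The authors deposited raw counts per gene for 64485 genes. Symbols and positions are from GENCODE 29 (58275 identifiers, 90.4%, matched without version), and unmatched rows held 0.0785% of counts.

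The counts of the 21 libraries of the 7 lines were fitted in edgeR 4.0.16 (R 4.3.3) by the quasi-likelihood F test with TMM, filterByExpr (minimum count 10, total 15) and line as the single factor. The contrast was BT-20 minus the mean of the 6 line coefficients, with two-sided Benjamini-Hochberg adjustment over 17772 genes. The SE is the absolute log2 fold change over the square root of F. The scripts were tested on simulated data. Alternatives were DESeq2 1.42.0, other filters, scalings, blocks and left-out libraries. The members, lists and rules were chosen with earlier results of these data known.

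Genes were named by rule: the 12 furthest each way among called protein-coding genes without overlap (at least 20 CPM; lower genes at least 5 CPM in each other line), 3 long noncoding RNAs each way, up to 4 called members per list and direction, genes with 0 to 6 BT-20 counts, 16 fixed genes and examples from each run of neighbours. Other list members, and DSC2, were named after their values were seen. In 6 of the 7 lines the replicate number marks the sequencing run. Deviations of same-numbered BT-20 and other libraries correlated at -0.194 to 0.176 (median 0.012, 15 pairs), and those of different numbers at -0.254 to 0.208 (median -0.018, 30 pairs). A few genes and 1 list are not reported here.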

Additional observations from a re-analysis of the deposited data

How the results depend on the processing

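The comparison was refitted under 20 alternatives. The counts of genes higher in BT-20 and genes lower in BT-20, 2487 and 2320, were 2480 and 2329 with the replicate number as a replicate block, and 2455 and 2293 with the run as a block and HCC1143 left out. Without 1 BT-20 library they were 2498 to 2708 and 2085 to 2347, and without one replicate number in every line 2349 to 2749 and 1969 to 2264. Larger moves came with no expression filter (3918 higher), with glmTreat against a log2 fold of 1 (1559 and 1314) and with a fold threshold of 2 in place of 1 on the log2 scale (760 and 955). With line sums 2 genes were called higher and 0 lower. The split of calls was 51.7% higher, and 61.9% without the filter. In runs of 10 genes the extreme medians were 5.04 and -2.63.

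Of 270 named genes, 13 changed sign, all with line sums, where the lines are averaged on the count scale and so 1 line with many reads weighs most (median shift -0.215): KRT5 -0.98, TWIST2 -1.15, SNAI2 -0.19, EREG -0.93, TXNIP -0.18, ACACA -0.28, ANGPTL4 -0.11, LCN2 -0.0047, MUC1 -0.64, KLK6 -0.48, S100A9 -0.68, HOXA11 -0.57 and H19 -1.12, with edgeR adjusted p = 0.9999. DESeq2 size factors shifted the median by 0.02. At 6157076 to 7081675 counts, fitted folds of genes with a few BT-20 counts depend on the prior count.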

Other observations

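HOX genes, which set position along the body axis, were called higher in 12 of 26 tested members and lower in 3 (median 0.90), most of them at a few CPM. HOXB7 stood at 23.1, 24 and 26.6 CPM, among line means of 0.0575 to 40.3. HOXA10 was nearly absent in BT-20, at 0.143, 0 and 0.29 CPM, and reached a mean of 29.1 in HCC1937. The imprinted long noncoding RNA H19 stood at 17.9, 15.1 and 16.4 CPM, below HCC1806 with a mean of 203 and above the other 5 lines.

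Hypoxia genes went both ways, with 5 of 19 called higher and 4 lower (median 0.29). HIF1A, the oxygen-regulated transcription factor, stood at 1130, 976 and 1050 CPM, above all other libraries (237 to 927; log2 fold change 1.29, SE 0.07). P4HA2, a collagen prolyl hydroxylase, stood at 7.45, 6.62 and 10.3 CPM and was below all others (32.7 to 185; -3.31, SE 0.13). Of 22 surface antigens that drugs target, 4 were called higher and 8 lower (median -0.34). The receptor MET was above every other library, at 714, 607 and 625 CPM against 41.8 to 439 (1.84, SE 0.08), and BT-20 ranked 1 of 15 lines for it. In the BCL2 family, which controls apoptosis, 3 of 15 were called higher and 4 lower (median -0.12), and BOK was the 1 member outside the range of the others, at 18.6, 17.6 and 15.4 CPM against 4.18 to 12.6 (1.21, SE 0.12).

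Across the tested genes, the log2 CPM of BT-20 libraries correlated most with HCC1937 (median r = 0.8855) and least with HCC1187 (0.8219), against 0.982 among BT-20 libraries; genes are not independent replicates.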
